A study of Mus musculus with 20 samples.

Results

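The response of mouse colon organoids to 48 h without stem-cell niche factors was compared between organoids that carried active BrafV600E and organoids that had received an empty vector. For each culture, the log2 level in base medium minus the log2 level in ENSW medium gave 1 paired change per gene. The mean of the 3 changes of BRAF organoids minus the mean of the 3 changes of EV (empty vector) organoids is called the response difference. A positive response difference means that a gene ended higher, relative to its own start, in BRAF organoids than in EV organoids. The comparison used 12 of the 20 arrays of the series. Of 39429 probes, 26259 had a signal clear of the background on 3 or more of these arrays. The brightest probe of each gene was used, which gave 20964 genes, and 15772 had a symbol.

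EV and BRAF organoids came from the proximal colon of male mice about 40 days old that were heterozygous for a Cre-activable BrafV600E allele, per the labels, and grew in Matrigel. BRAF organoids had received Cre from a lentivirus and were studied 5 months after induction. EV organoids had received the lentiviral backbone without Cre as the control. Organoids were cultured with EGF and with media conditioned by cells that secrete Noggin, R-spondin or Wnt3a. The labels name the complete medium ENSW without spelling it out, and base medium lacks the niche factors. Each type had 3 lines, numbered 1 to 3, and each line gave 1 array per medium. Nothing in the labels says whether lines came from separate mice, so the p-values measure the spread between these lines.

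As background, Wnt and R-spondin signals keep crypt stem cells dividing, Noggin shields them from BMP signals, and EGF drives the RAS, RAF and MAPK cascade. BRAF is a kinase of that cascade, and the V600E form signals without a ligand. Normal colon epithelium that loses these factors stops dividing and takes on features of surface colonocytes, goblet cells and enteroendocrine cells. BrafV600E is known as the initiating mutation of serrated tumours of the proximal colon.

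On the 12 arrays 59.8% to 65.2% of spots were well above background and 0 were saturated. Of 16 epithelial identity genes, 15 were well above background on all 12 arrays. Of 21 mesenchymal markers, 13 were never above background, Col1a1, Pdgfra, Dcn and Twist1 among them, and of 16 blood and endothelial markers, 10 were above background on all 12 arrays and 5 were never above it, Cd3g, Lyz2, Cdh5 and Tek among them. The summed linear level of the mesenchymal list, in units of the array's 75th percentile, ran from 1.31 to 12.6 and that of the epithelial list from 932 to 2140. The summed mesenchymal level reached 4.67 to 12.6 in EV organoids in base medium and 1.66 to 3.01 in BRAF organoids in base medium, against 1.89 to 5.24 and 1.31 to 2.64 in ENSW medium. The summed level of the blood and endothelial list in EV organoids went from 26.2 to 27.4 in ENSW medium to 47.7 to 71.1 in base medium. In BRAF organoids it went from 31.5 to 36.6 to 34.6 to 50.4. Itgam made up most of this sum in EV organoids, at a log2 level of 4.10 to 4.19 in ENSW and 5.24 to 5.88 in base medium. The median change of the 11 list members measured was 0.25 in EV and 0.12 in BRAF organoids. The part of both lists in the results below was not tested. The Braf probe reads both alleles, so it checks nothing about activation. Its level ran from -3.43 to -2.62 in EV organoids and from -2.69 to -1.92 in BRAF organoids, on the log2 scale relative to the array's 75th percentile that holds for all levels here. No slide held both EV and BRAF organoids, so in such levels the type and the slide cannot be told apart. Both media of a culture were on 1 slide so the paired change does not cross slides.

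The response to niche factor withdrawal was smaller in each BRAF line than in each EV line. The share of genes that changed over 2-fold in either direction was 29.8%, 27.3% and 41.7% in EV lines 1, 2 and 3. It was 8.2%, 17.7% and 13.6% in BRAF lines 1, 2 and 3. All 3 BRAF lines lay below all 3 EV lines. The median absolute change over all genes was 0.65 ± 0.14 log2 units (SD, n = 3) in EV and 0.35 ± 0.09 in BRAF organoids, a difference of -0.29 (exact two-sided permutation test, p = 0.1, the smallest p that 3 against 3 lines can give). With normexp background correction this difference was -0.088.

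The pattern of change across genes was partly shared. Each BRAF line was set against the mean EV change, and each EV line against the mean of the other 2 EV lines. The slope was 0.161, 0.535 and 0.495 for BRAF lines 1, 2 and 3 and 0.797, 0.779 and 1.25 for EV lines 1, 2 and 3. BRAF lines 2 and 3 correlated with each other across genes at r = 0.734 and with the EV lines at 0.668 to 0.746. BRAF line 1 stood apart. It correlated with BRAF lines 2 and 3 at 0.392 and 0.37 and with the EV lines at 0.268 to 0.35. These correlations run over genes, which are not independent replicates. Wild-type organoids, with 1 array per medium and so no replicate, changed over 2-fold at 38% of genes and correlated with the mean EV change at 0.937 and with the mean BRAF change at 0.731.

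**Figure D1:**
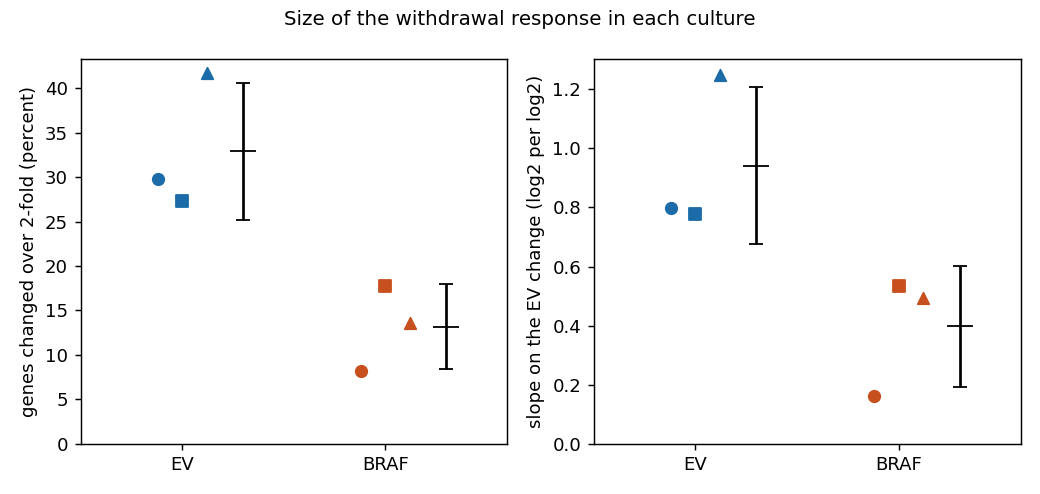
Size of the withdrawal response in each culture. The left axis gives the percent of genes that changed over 2-fold and the right axis the slope of a culture's changes on the EV change (log2 per log2). Points are lines 1 (circle), 2 (square) and 3 (triangle), and bars are the mean ± SD of 3 lines. Every BRAF line lies below every EV line in both panels, and BRAF line 1 is lowest with 8.2% of genes and a slope of 0.161.

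The response difference passed the test at 23 genes (limma with Benjamini-Hochberg adjustment, adjusted p under 0.05), 4 of them higher and 19 lower in BRAF organoids, which is 0.11% of the genes tested (0.0191% higher and 0.0906% lower). The smallest adjusted p was 0.0217. At an adjusted p under 0.1 the count was 2835, with 1776 higher and 1059 lower. At an unadjusted p under 0.05 it was 5783 genes (27.6%), 3129 of them higher (14.9%) and 2654 lower (12.7%). The 3 BRAF changes and the 3 EV changes did not overlap at 7484 genes (35.7%), 17.8% higher and 17.9% lower. The count at the adjusted threshold depended on the processing: it was 2745 (1689 higher, 1056 lower) with normexp background correction and 0 with no filter on dim probes, where 9510 genes had an unadjusted p under 0.05 in limma. Leaving out EV line 2 gave 22 genes and leaving out BRAF line 1 gave 1. Leaving out EV line 1, EV line 3, BRAF line 2 or BRAF line 3 gave 0, where 4581, 3760, 5499 and 5004 genes had an unadjusted p under 0.05.

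Most genes with an unadjusted p under 0.05 for the response difference changed in the same direction in both types, and less in BRAF organoids. Of the 3129 genes higher at an unadjusted p under 0.05, 2709 had a negative mean change in both types that was smaller in size in BRAF organoids, 352 had opposite signs, and 68 had a positive change in both that was greater in BRAF organoids. Of the 2654 lower genes, 1962 had a positive mean change in both types that was smaller in BRAF organoids, 672 had opposite signs, and 20 had a negative change in both that was greater in size in BRAF organoids. Over all genes, 66.8% had the same sign and a smaller change in BRAF organoids. Among the genes that passed the adjusted threshold this held for 3 of 4 higher and 8 of 19 lower genes, and the other 1 and 11 had opposite signs. Tested on its own, the EV change passed the adjusted threshold at 6476 genes that rose (30.9%) and 4776 that fell (22.8%), and the BRAF change at 742 that rose (3.54%) and 295 that fell (1.41%). At an unadjusted p under 0.05 in limma the counts were closer, at 12507 genes in EV and 5760 in BRAF organoids. Each type was adjusted separately, so the same unadjusted p could pass in EV and not in BRAF organoids. This also holds for the counts of list members that rose or fell in each type below.

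**Figure D2:**
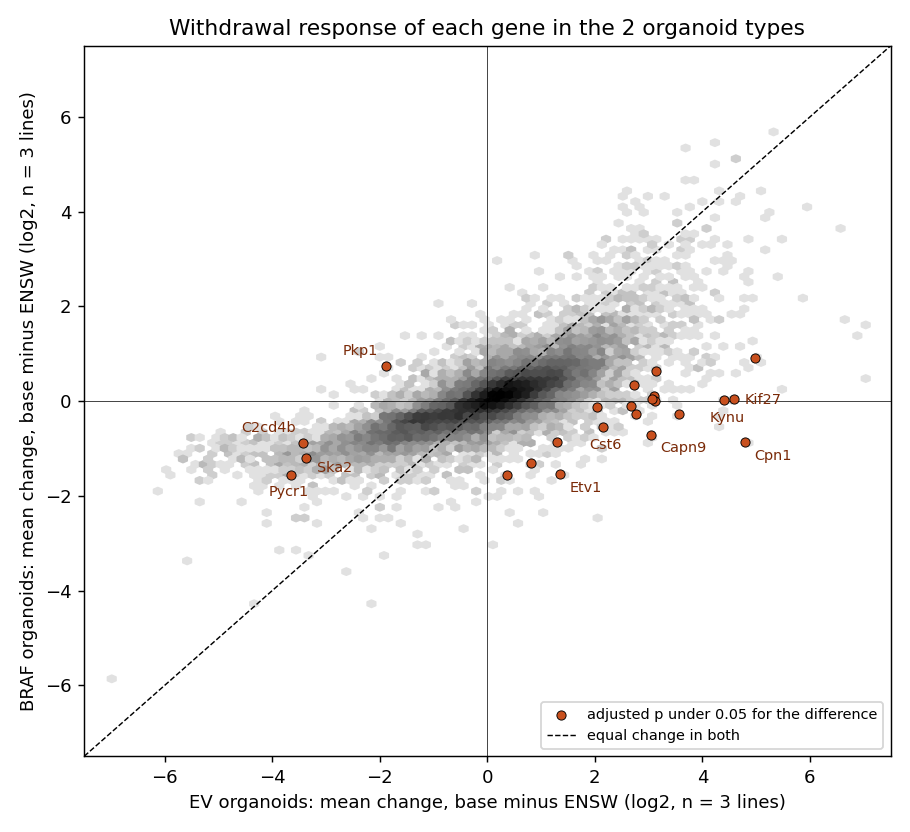
Mean withdrawal change of each of 20964 genes in EV organoids (x axis, log2) and in BRAF organoids (y axis, log2), n = 3 lines each, with darker grey for more genes on a log count scale. The dashed line marks equal change, and orange points are the 23 genes whose response difference passed the test. The cloud is flatter than the dashed line, and Pkp1 and Etv1 lie in the quadrants where the types changed in opposite directions.

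Etv1, an ETS transcription factor gene that acts downstream of MAPK signalling, changed in opposite directions. Its change was 1.62, 0.79 and 1.65 in EV lines 1, 2 and 3 and -1.62, -1.75 and -1.27 in BRAF lines 1, 2 and 3. It rose in all 3 EV lines and fell in all 3 BRAF lines. The response difference was -2.90 ± 0.30 (SE, adjusted p = 0.0447), and each type's own change passed the test (EV adjusted p = 0.00227, BRAF adjusted p = 0.018). The Etv1 probe lies on chromosome 12, 39593054 to 39593113 (mm9). Chst8, which encodes a sulfotransferase, followed the same pattern, with changes of 0.55, 0.78 and 1.09 in EV lines and -1.12, -1.42 and -1.40 in BRAF lines (response difference -2.12 ± 0.22, adjusted p = 0.0447). It was well above background on 2 of 3 BRAF arrays in base medium. Cyria, whose product binds the small GTPase RAC1, changed by 1.30 in EV and by -0.86 in BRAF organoids (response difference -2.16 ± 0.21, adjusted p = 0.0447). Cyria was well above background on 2 of 3 arrays in each group but EV organoids in base medium. Etv1, Chst8 and Cyria are the 3 genes of the 23 for which the change of each type passed the test with opposite signs. With normexp background correction their response differences were smaller in size, at -1.44, -1.14 and -1.10.

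Pkp1, which encodes the desmosome protein plakophilin 1, went the other way. Its level in ENSW and base medium was 0.56 and -0.87, 1.65 and -0.41, and 1.12 and -1.07 in EV lines 1, 2 and 3. In BRAF lines it was 0.82 and 1.59, 1.00 and 1.46, and 2.85 and 3.82. It fell in EV organoids (-1.89, adjusted p = 0.00103), while the BRAF change was 0.73 (adjusted p = 0.0747), positive in 3 of 3 lines. The response difference was 2.63 ± 0.27 (adjusted p = 0.0447), the largest of the 4 higher genes.

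The other 3 higher genes had a negative change in both types that was smaller in size in BRAF organoids. C2cd4b changed by -3.21, -3.48 and -3.60 in EV lines and by -1.36, -0.83 and -0.47 in BRAF lines (response difference 2.54 ± 0.28, adjusted p = 0.0477). C2cd4b was well above background on 2 of 3 BRAF arrays in each medium, and BRAF line 2 was at -6.30 and -7.14. Its mean level in ENSW medium was 1.60 in EV and -3.17 in BRAF organoids. Pycr1, an enzyme gene of proline synthesis, fell by 3.66 in EV and by 1.56 in BRAF organoids (response difference 2.10 ± 0.24, adjusted p = 0.0493). It was well above background on 1 of 3 EV arrays in base medium, 1 of its 2 probes had this sign, and under the alternatives the value ran from 0.18 to 2.24. Ska2, a gene of the spindle and kinetochore complex, had a response difference of 2.17 ± 0.23 (adjusted p = 0.0452). It was not well above background on any EV array in base medium, which leaves a bound of at least 1.22-fold, and its sign turned with normexp background correction (-0.11). C2cd4a, a relative of C2cd4b, changed by -2.06 in EV and -0.09 in BRAF organoids and missed the adjusted threshold (response difference 1.97 ± 0.26, adjusted p = 0.0652). Its mean level in BRAF organoids in ENSW medium was -3.03, near the -3.20 of EV organoids in base medium.

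Among the 19 lower genes, 11 had signal clear of the background on 1 or more arrays of every group. These 11 rose in EV organoids, and their mean BRAF changes lay between -1.55 and 0.64. Cpn1, a carboxypeptidase N subunit gene, changed by 5.30, 3.51 and 5.58 in EV lines and by -1.31, -0.40 and -0.89 in BRAF lines. Its response difference of -5.67 ± 0.56 (adjusted p = 0.0447) was the largest in size of the 23, and Cpn1 was well above background on 1 of 3 BRAF arrays in base medium. Capn9, a calpain gene of the digestive tract, changed by 3.14, 3.41 and 2.57 in EV lines and by -0.77, -1.01 and -0.39 in BRAF lines (response difference -3.76 ± 0.29, adjusted p = 0.0217). It was well above background on 2 of 3 BRAF arrays in each medium. For both Cpn1 and Capn9 every EV line was positive and every BRAF line negative. Cst6, a cystatin protease inhibitor gene, was split in the same way, from 1.73 to 2.49 in EV and from -0.73 to -0.44 in BRAF lines (response difference -2.70 ± 0.25, adjusted p = 0.0447). Btnl1, a butyrophilin-like gene of intestinal epithelium, changed by 2.90 to 3.37 in EV lines and by 0.22 to 0.95 in BRAF lines (response difference -2.50 ± 0.26, adjusted p = 0.0447). In ENSW medium Btnl1 was well above background on 2 of 3 EV arrays and 1 of 3 BRAF arrays. Ctsf, a lysosomal cathepsin gene, changed by 2.33 to 3.14 and by 0.20 to 0.56 (response difference -2.38 ± 0.26, adjusted p = 0.049). Plcxd3 and Dipk2a had response differences of -3.04 and -2.16 with BRAF changes of -0.27 and -0.12. Plcxd3 was well above background on 1 of 3 arrays in each group but EV organoids in base medium, and its response difference was -0.74 with normexp background correction.

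For 7 of the 19 lower genes the BRAF groups give no level, and these genes passed the filter on dim probes only through EV organoids in base medium. With a filter at 6 arrays 14 genes passed the test. Kif27, Kynu, Grpr, Sntg1, Gm10382, LOC100505038 and 4931428L18Rik were well above background on the 3 EV arrays in base medium and on no array of the other 3 groups. Kynu, which encodes kynureninase of tryptophan breakdown, changed by 5.46, 3.40 and 4.34 in EV lines, and Grpr, the receptor gene for gastrin-releasing peptide, by 3.47, 2.91 and 4.30. These rises start from below background, so their size has only a bound, and none could be set for the response difference. Bend5 was the reverse case: it was not well above background on any EV array, fell by 1.55 in BRAF organoids (adjusted p = 0.0108), and was the 1 gene of the 23 for which the BRAF change alone passed. In all, 14 of the 23 genes had signal clear of the background on 1 or more arrays of each group.

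**Figure D3:**
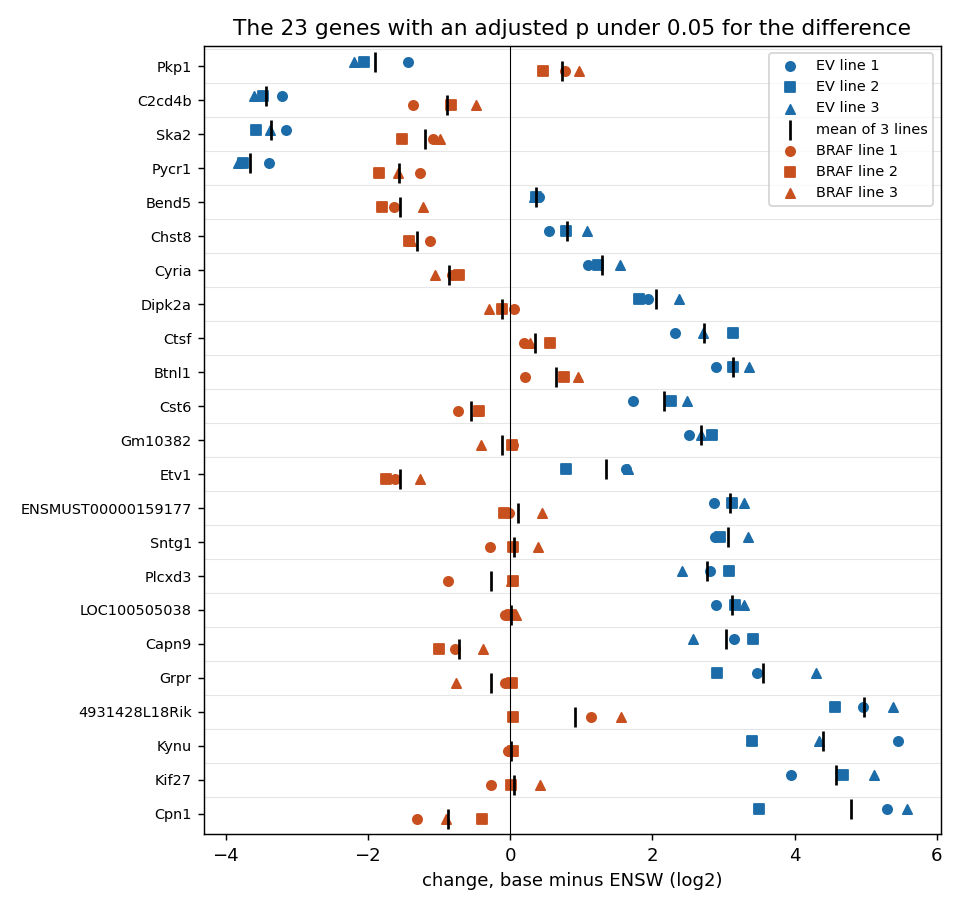
Change from ENSW to base medium (x axis, log2) of each of the 23 genes whose response difference passed the test, by line, with blue for EV and orange for BRAF organoids and black bars for the mean of 3 lines. The EV and BRAF points of each gene do not overlap, but the 23 genes were picked by a test on these same changes. Over all genes 35.7% did not overlap. For the 7 genes that were below background in both BRAF groups the orange points, between -0.76 (Grpr) and 1.56 (4931428L18Rik), are no measured change.

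Genes of mitosis had a more negative median change in each EV line than in each BRAF line. Of 24 mitosis genes, 23 fell in EV organoids at an adjusted p under 0.05 and 0 in BRAF organoids, against 22.8% and 1.41% of all genes. The median change of the list was -3.37, -4.34 and -5.60 in EV lines 1, 2 and 3 and 0.26, -1.41 and -1.36 in BRAF lines 1, 2 and 3. Its median response difference was 3.45, against -0.08 over all genes, and all 24 differences were positive. None of the 24 passed the adjusted threshold, while 21 had an unadjusted p under 0.05 in the higher direction, against 14.9% of all genes. Without BRAF line 1, the line with the least change, the median was 3.06 and 21 genes had an unadjusted p under 0.05, against 12.2% of all genes. With normexp background correction 18 of the 24 passed the adjusted threshold, against 8.06% of all genes.

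Mki67, whose product marks cycling cells, changed by -3.43, -4.92 and -6.69 in EV lines and by 0.44, -1.47 and -1.59 in BRAF lines. The EV fall was 32.3-fold, and the BRAF change was a 1.83-fold lower level that did not pass (adjusted p = 0.4). BRAF line 1 was the 1 line of the 6 with a higher Mki67 level in base than in ENSW medium. The response difference of Mki67 was 4.15 ± 0.90 (adjusted p = 0.0824). Prc1, a gene for a cross-linker of spindle microtubules, was at 1.62, 1.99 and 1.64 in EV lines in ENSW medium and at -1.84, -2.36 and -3.61 in base medium. It was at 1.51, 2.16 and 1.82 in BRAF lines in ENSW medium and at 1.34, 0.78 and 0.66 in base medium. The types overlapped in ENSW medium and were apart in base medium (response difference 3.45 ± 0.52, adjusted p = 0.0652). Cenpe, which encodes a kinetochore motor, had a response difference of 3.45 ± 0.55 (adjusted p = 0.0652). Racgap1, a gene of cytokinesis outside the list, changed by -4.08 in EV and -0.81 in BRAF organoids (response difference 3.27 ± 0.44, adjusted p = 0.0652).

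Genes of DNA replication followed. Of 24, 23 fell in EV organoids and 1, the origin licensing gene Cdc6, in BRAF organoids, against 22.8% and 1.41% of all genes. Cdc6 was not well above background on any EV array in base medium. The median change was -3.16, -3.57 and -4.12 in EV lines and -0.10, -1.78 and -1.42 in BRAF lines, with a median response difference of 2.54. None passed the adjusted threshold, and 21 had an unadjusted p under 0.05, all higher, against 14.9% of all genes. Without BRAF line 1 the number was 20, against 12.2% of all genes. With normexp background correction 18 passed, against 8.06% of all genes. Rrm2, a subunit gene of ribonucleotide reductase, changed by -2.46, -4.0 and -3.94 in EV lines and by 0.39, -0.30 and -0.85 in BRAF lines (response difference 3.21 ± 0.50, adjusted p = 0.0652). Tk1, the thymidine kinase gene, had a response difference of 3.43 ± 0.66 (adjusted p = 0.0752). Among 18 genes of homologous recombination and the Fanconi pathway, 14 had an unadjusted p under 0.05, all higher, against 14.9% of all genes. The median response difference of the 18 was 2.26 (1.95 with 5 genes that were below background in a group set to the floor). In the histone list 7 of 15 genes were higher and 2 lower at an unadjusted p under 0.05, against 14.9% and 12.7% of all genes. H1f1 of this list had a response difference of 2.85 ± 0.44 (adjusted p = 0.0652). Uhrf1, which couples DNA methylation to replication, changed by -5.95 in EV and -1.50 in BRAF organoids (response difference 4.46 ± 0.94, adjusted p = 0.0804).

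The promoters of these genes were read because the members moved together and because cell-cycle promoters are known for E2F sites, for a cell-cycle element called the CHR and for the CCAAT box. The sequences below are RefSeq promoters (GRCm38.p6), 250 bases before to 50 after the start of the gene, 5′ to 3′ in the direction of transcription. Capitals mark 4 motifs that were searched on both strands, and a match on the minus strand appears as its reverse complement. The CCAAT box was searched by the letters of its name. The CHR was searched as TTTGAA. The E2F-like motif was searched as GCGGGAA. The TCF-like motif was searched as ATCAAAG, and it can share bases with the CHR. Prc1 and Cenpe have the smallest p of the mitosis list, Rrm2 of the replication list and Lss of the cholesterol list, and Slc13a2, whose response difference was negative, has the smallest p of the colonocyte list.
Prc1, chr7:80294201-80294500, plus strand: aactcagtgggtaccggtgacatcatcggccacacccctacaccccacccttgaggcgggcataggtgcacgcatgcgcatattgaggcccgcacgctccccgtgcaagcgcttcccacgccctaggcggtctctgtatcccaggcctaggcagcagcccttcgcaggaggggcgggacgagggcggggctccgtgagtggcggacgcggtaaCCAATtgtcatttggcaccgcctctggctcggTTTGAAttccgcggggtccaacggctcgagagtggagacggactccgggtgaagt
Cenpe, chr3:135212313-135212612, plus strand: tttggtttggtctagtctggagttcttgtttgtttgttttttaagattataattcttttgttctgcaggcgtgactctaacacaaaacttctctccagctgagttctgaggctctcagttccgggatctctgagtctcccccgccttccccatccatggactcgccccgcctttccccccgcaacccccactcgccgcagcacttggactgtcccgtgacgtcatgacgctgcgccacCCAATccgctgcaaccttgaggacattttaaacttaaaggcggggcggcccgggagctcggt
Rrm2, chr12:24708004-24708303, plus strand: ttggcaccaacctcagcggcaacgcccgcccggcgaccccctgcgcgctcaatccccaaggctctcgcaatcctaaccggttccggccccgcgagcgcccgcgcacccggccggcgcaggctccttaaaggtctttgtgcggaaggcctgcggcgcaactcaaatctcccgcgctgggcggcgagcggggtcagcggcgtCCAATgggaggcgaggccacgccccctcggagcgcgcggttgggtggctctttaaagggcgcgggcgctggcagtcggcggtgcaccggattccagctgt
Lss, chr10:76531355-76531654, plus strand: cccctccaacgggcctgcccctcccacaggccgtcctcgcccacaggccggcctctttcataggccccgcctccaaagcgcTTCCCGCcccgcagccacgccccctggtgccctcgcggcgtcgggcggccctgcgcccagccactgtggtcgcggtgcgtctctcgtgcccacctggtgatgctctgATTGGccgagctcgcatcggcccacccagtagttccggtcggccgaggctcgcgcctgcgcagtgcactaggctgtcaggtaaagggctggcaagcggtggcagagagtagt
Slc13a2, chr11:78422185-78422484, minus strand: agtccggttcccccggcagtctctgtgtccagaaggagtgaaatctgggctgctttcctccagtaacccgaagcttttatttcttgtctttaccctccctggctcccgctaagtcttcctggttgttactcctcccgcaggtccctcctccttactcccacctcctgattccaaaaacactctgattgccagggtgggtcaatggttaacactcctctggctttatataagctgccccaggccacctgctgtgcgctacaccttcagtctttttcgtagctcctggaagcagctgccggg

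In Prc1 a CCAAT box begins 37 bases and a CHR 5 bases before the start. A box begins 12 bases before the start in Cenpe and 50 bases before it in Rrm2. The Slc13a2 window holds none of the 4 motifs. Of 20964 genes, 12348 had a promoter in the RefSeq table. Among 20 mitosis promoters 90% held the CCAAT box and 75% the CHR, against 38.7% and 13% of all promoters. Among 19 replication promoters 63.2% held the box and 42.1% the E2F-like motif, against 7.52% of all promoters for the second of these. Of all promoters 2.84% held the TCF-like motif. Among 14 recombination and Fanconi promoters these shares were 78.6% and 50%. The E2F-like motif was in 0 of 20 mitosis promoters and the CHR in 0 of 14 recombination and Fanconi promoters and 15.8% of replication promoters. Over all genes higher at an unadjusted p under 0.05, the shares for the box, the CHR and the E2F-like motif were 44.3%, 17% and 11.6%, and over the lower genes 37.2%, 11.5% and 6.46%. A match is a description of the letters and not a bound site.

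Genes that decide entry into S phase had mixed responses. Of 21 genes of the G1 cyclin and E2F list, 11 were higher and 2 lower at an unadjusted p under 0.05. This compares with 14.9% and 12.7% of all genes, and 0 of the 21 passed the adjusted threshold. E2f2, an E2F transcription factor gene, fell in EV organoids (-0.57, adjusted p = 0.0431) and rose in BRAF organoids (1.65, adjusted p = 0.0131). Its changes were -0.27, -0.76 and -0.68 in EV lines and 1.33, 2.11 and 1.51 in BRAF lines (response difference 2.22 ± 0.27, adjusted p = 0.0608). The E2f2 level in BRAF organoids started lower, at -0.96, -5.42 and -1.54 in ENSW medium against 0.72 to 0.94 in EV organoids. E2f2 was well above background on 2 of 3 BRAF arrays in ENSW medium. E2f1 had a response difference of 2.11 ± 0.37 (adjusted p = 0.0713). Ccnd1, the cyclin D1 gene and a target of both Wnt and MAPK signals, changed by -2.25, -1.42 and -3.64 in EV lines and by -0.32, -0.97 and -0.31 in BRAF lines (response difference 1.90 ± 0.55, adjusted p = 0.093). Cdkn1a, which encodes the cell-cycle inhibitor p21, rose 5.53-fold in EV organoids (adjusted p = 0.000924), by 2.60, 1.93 and 2.88 in the 3 lines. It changed by 0.39, 0.81 and 0.44 in BRAF lines (response difference -1.92 ± 0.29, adjusted p = 0.0652), and 2 of its 3 probes had this sign.

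Genes of ribosome biogenesis fell in EV organoids without exception in the list, at 26 of 26, against 22.8% of all genes. In BRAF organoids 9 of the 26 fell, against 1.41% of all genes. The median change was -1.91, -2.06 and -2.84 in EV lines and -0.70, -1.27 and -0.92 in BRAF lines. Over the list the median response difference was 1.36, with 22 genes higher at an unadjusted p under 0.05, against 14.9% of all genes. At the adjusted threshold 0 passed, and 19 did with normexp background correction, against 8.06% of all genes. Rrp12 changed by -2.08, -2.36 and -2.92 in EV lines and by -0.93, -0.83 and -0.81 in BRAF lines (response difference 1.60 ± 0.26, adjusted p = 0.0652). Myc, a driver of ribosome synthesis, changed by -1.59, -2.03 and -2.77 in EV lines and by -0.48, -1.45 and -0.61 in BRAF lines. The EV fall of Myc passed the test (adjusted p = 0.00143), the BRAF change did not (adjusted p = 0.117), and the response difference was 1.29 ± 0.39 (adjusted p = 0.101).

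**Figure D4:**
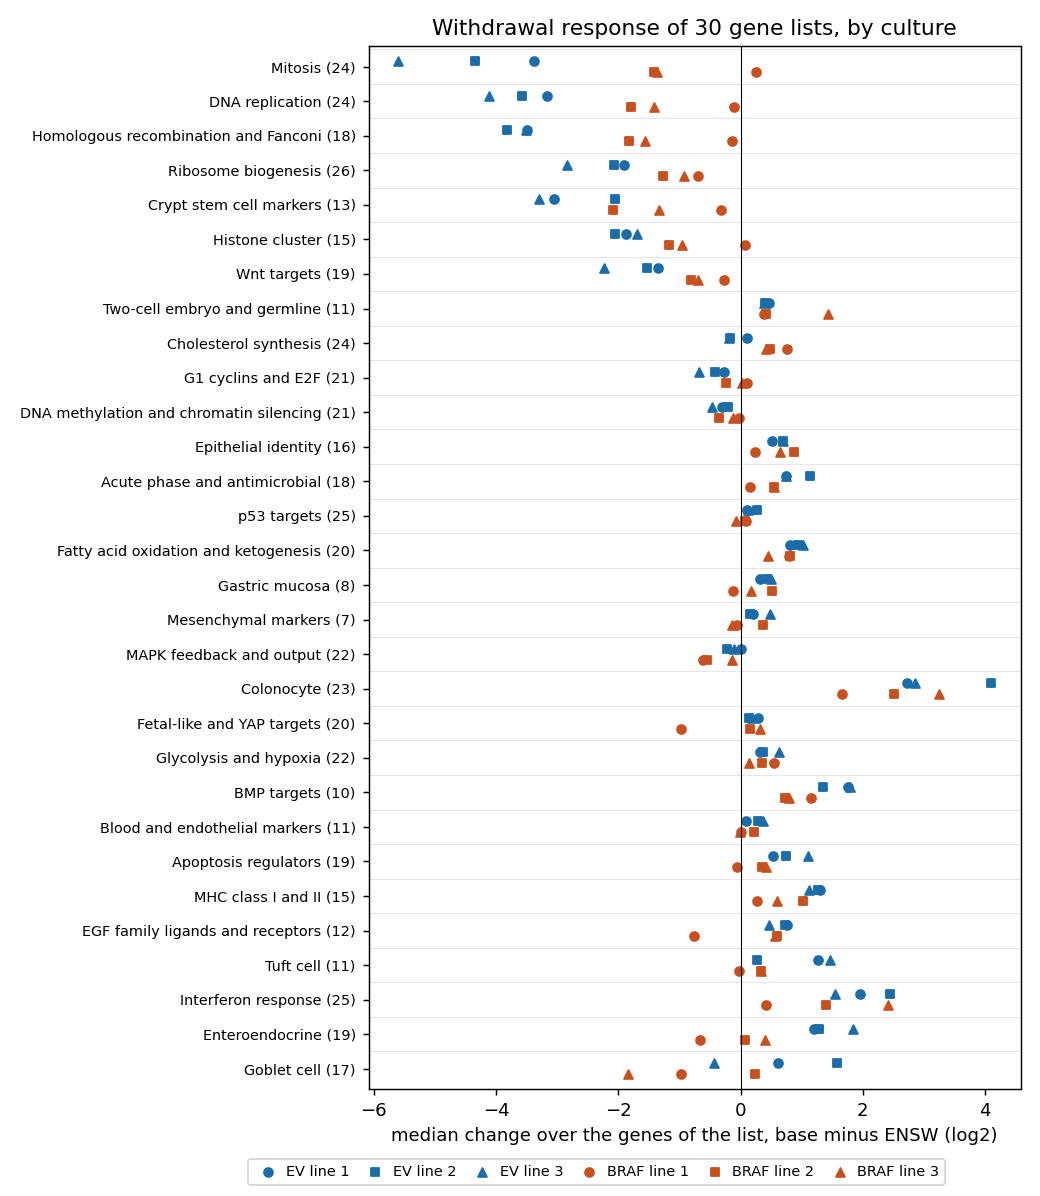
Median change from ENSW to base medium (x axis, log2) over the measured genes of 30 gene lists, by line, with the number of genes in brackets and the lists ordered by their median response difference. Blue points are EV and orange points BRAF organoids. Mitosis is at -3.37 to -5.60 in EV lines and at -1.41 to 0.26 in BRAF lines, while the colonocyte medians of the types overlap.

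Of 19 Wnt target genes, 13 fell in EV organoids and 1 in BRAF organoids, against 22.8% and 1.41% of all genes. The median response difference was 0.94 (0.74 with 6 dim genes at the floor). At an unadjusted p under 0.05, 7 were higher, against 14.9% of all genes. Cd44, Ephb2, Znrf3, Nkd1 and Sox9 were among these 7, besides Ccnd1 and Myc, and Znrf3 and Nkd1 were not well above background on any EV array in base medium. Cd44, a crypt surface receptor gene, changed by -1.32, -2.48 and -2.24 in EV lines and by -0.53, -0.61 and -0.54 in BRAF lines (response difference 1.46 ± 0.32, adjusted p = 0.0827). Axin2, a feedback inhibitor and a direct Wnt target, changed by -0.90, -0.70 and -0.95 in EV lines and by 0.98, -0.64 and -0.69 in BRAF lines (response difference 0.73 ± 0.46, adjusted p = 0.337). BRAF lines 2 and 3 were close to the EV lines, and BRAF line 1 was the 1 line with a higher Axin2 level in base medium.

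Lgr5, the R-spondin receptor gene that marks crypt stem cells, fell in both types. It changed by -6.87, -5.75 and -8.34 in EV lines and by -1.60, -7.87 and -8.13 in BRAF lines. Both falls passed the test (EV adjusted p = 0.00363, BRAF adjusted p = 0.0482). In base medium Lgr5 was well above background on 0 EV arrays and on 1 BRAF array, so the size of the EV fall has only a bound. The response difference was 1.12 ± 1.74 (adjusted p = 0.708), and it turned to -1.01 without BRAF line 1 and to -0.12 with normexp background correction. Of 13 stem cell markers, 8 fell in EV organoids and 1 in BRAF organoids, against 22.8% and 1.41% of all genes. At an unadjusted p under 0.05, 3 were higher and 1 lower, against 14.9% and 12.7% of all genes. Without BRAF line 1 the median response difference of this list went from 1.12 to 0.09 and 0 genes were left on either side, against 12.2% and 8.37% of all genes. Lrig1, an inhibitor of EGF receptors in stem cells, changed by 0.08 in BRAF line 1 and by -2.08 and -1.73 in lines 2 and 3, just above the EV range of -4.29 to -2.15.

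Of 22 genes of MAPK feedback and output, Etv1 passed the adjusted threshold, and 3 were higher and 3 lower at an unadjusted p under 0.05, near the 14.9% and 12.7% of all genes. The higher genes were Ccnd1, Myc and Phlda1 and the lower ones Etv1, Spry2 and Dusp5. The median response difference of the list was -0.19, and 0.0028 without BRAF line 1. The Etv1 relatives Etv4 and Etv5 fell in both types. Etv4 changed by -1.88, -2.37 and -2.46 in EV lines and by -1.73, -2.20 and -1.48 in BRAF lines (response difference 0.43 ± 0.27, adjusted p = 0.341). Dusp6, a phosphatase gene of ERK feedback, changed by 0.70, 0.80 and 0.39 in EV lines and by -0.68, 0.54 and 0.30 in BRAF lines (response difference -0.57 ± 0.35, adjusted p = 0.321). Spry2, another feedback inhibitor, had a response difference of -0.71 ± 0.26 (adjusted p = 0.14). Braf itself had one of -0.33 ± 0.28 (adjusted p = 0.466). Among 12 EGF family ligands and receptors, Tgfa, an EGF receptor ligand gene, rose in EV organoids (1.01, adjusted p = 0.0043) and changed by -0.37, 0.49 and 0.19 in BRAF lines (response difference -0.91 ± 0.26, adjusted p = 0.093).

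Id1, Id2 and Id3, targets of the BMP signal that Noggin blocks, rose in both types. Id1 changed by 3.14, 2.57 and 2.47 in EV lines and by 2.59, 3.18 and 2.95 in BRAF lines. It rose in both (adjusted p = 0.00083 and 0.00758), and the response difference was 0.18 ± 0.27 (adjusted p = 0.694). Id3 rose by 4.68 and 4.35. Id2 rose by 2.04 and 1.36 (response difference -0.69 ± 0.30, adjusted p = 0.194). Of 10 BMP targets, 7 rose in EV and 3 in BRAF organoids, against 30.9% and 3.54% of all genes. Id4 was the 1 member lower at an unadjusted p under 0.05, near the 12.7% of all genes. It was well above background on 0 BRAF arrays. A p above the threshold does not show equal changes.

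**Figure D5:**
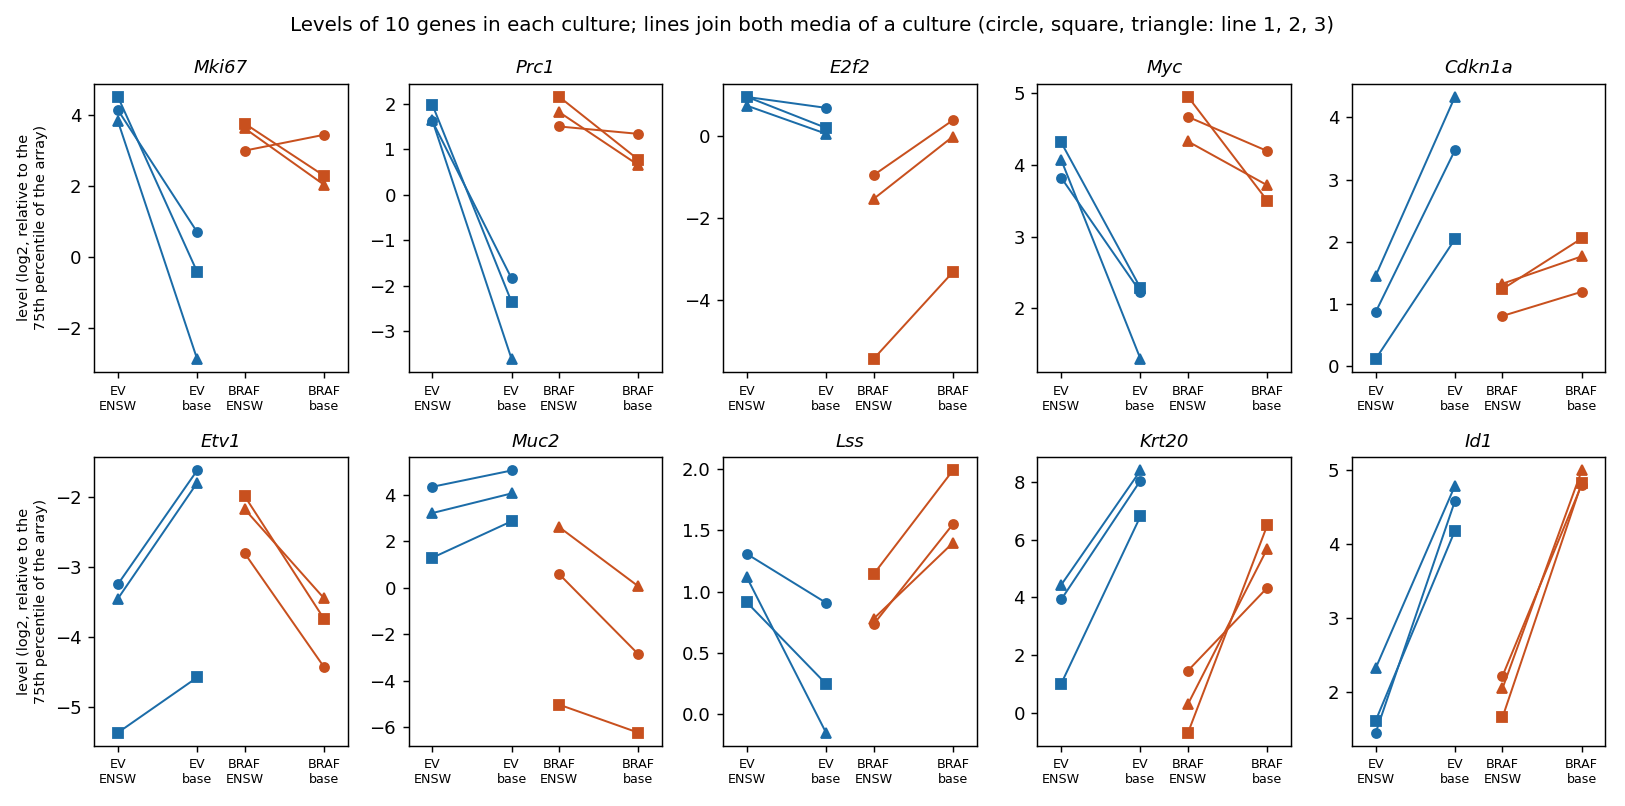
Levels of 10 genes in each culture (y axis, log2 relative to the array's 75th percentile) in ENSW and base medium, with lines joining both media of a culture and circles, squares and triangles for lines 1, 2 and 3. Blue is EV and orange BRAF. Mki67 and Prc1 drop further in EV than in BRAF lines, Etv1 and Muc2 run in opposite directions, and Krt20 and Id1 rise in all 6 cultures.

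Colonocyte genes rose in both types at part of the list. Of 23 colonocyte genes, 20 rose in EV and 12 in BRAF organoids, against 30.9% and 3.54% of all genes, and 0 fell in either. The median response difference was -0.22, with 1 gene higher and 6 lower at an unadjusted p under 0.05 (14.9% and 12.7% of all genes) and 0 at the adjusted threshold. Without BRAF line 1 the median turned to 0.29, with 4 genes higher and 5 lower, against 12.2% and 8.37% of all genes. Krt20, a keratin gene of surface colonocytes, changed by 4.12, 5.80 and 3.96 in EV lines and by 2.87, 7.19 and 5.38 in BRAF lines (response difference 0.52 ± 1.07, adjusted p = 0.784), and the difference turned to -0.50 without BRAF line 2. Tmigd1, Guca2a and Car1 also rose in both types, by 5.27, 4.20 and 2.58 in EV and by 5.68, 4.97 and 4.35 in BRAF organoids. Slc13a2, a gene for a dicarboxylate transporter of the brush border, stood at the other end. Its level in EV lines went from -1.90, -3.23 and -1.37 in ENSW medium to 4.46, 3.32 and 5.70 in base medium, and in BRAF lines from -4.65, -5.55 and -3.14 to -3.88, -4.23 and 0.00. The EV rise was 101-fold and the BRAF change 3.35-fold higher (adjusted p = 0.0659), with a response difference of -4.92 ± 0.60 (adjusted p = 0.0608). Saa1, an acute phase gene also made by colon epithelium, rose in both types, by 4.0 and 2.0 (response difference -1.99 ± 0.29, adjusted p = 0.0652). The water channel gene Aqp8 rose by 4.07 in EV organoids and changed by 0.41 in BRAF organoids (adjusted p of the difference = 0.116).

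Of the 17 goblet cell genes measured, 6 rose and 5 fell in EV organoids, and 2 rose and 4 fell in BRAF organoids. Of all genes, 30.9% rose and 22.8% fell in EV organoids, and 3.54% rose and 1.41% fell in BRAF organoids. Muc2, the main gel-forming mucin gene, changed by 0.70, 1.57 and 0.84 in EV lines and by -3.45, -1.21 and -2.55 in BRAF lines. It fell 5.28-fold in BRAF organoids (adjusted p = 0.0292), and the EV change, positive in 3 of 3 lines, missed the threshold (adjusted p = 0.0646). The response difference was -3.44 ± 0.57 (adjusted p = 0.0652). Muc2 was well above background on 2 of 3 BRAF arrays in base medium. Bcas1 rose in EV and fell in BRAF organoids (0.64 and -1.22, response difference -1.85 ± 0.24, adjusted p = 0.0652). Clca1, a secreted goblet cell protein gene, rose in both, 10.2-fold and 2.62-fold (response difference -1.96 ± 0.25, adjusted p = 0.0637). Tff3, a trefoil factor gene of goblet cells, rose by 2.16 in EV organoids and changed by -1.20 in BRAF organoids. Of 17 goblet cell genes, 0 were higher and 7 lower at an unadjusted p under 0.05, against 14.9% and 12.7% of all genes. The median of the list was -1.32. Without BRAF line 1, 5 were lower, against 8.37% of all genes. In RNA from whole cultures, fewer cells of a type and less RNA per cell cannot be told apart.

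Enteroendocrine genes rose in EV organoids at 13 of 19 and in BRAF organoids at 0 of 19, against 30.9% and 3.54% of all genes. The median response difference was -1.28, with 11 of 19 lower and 0 higher at an unadjusted p under 0.05, against 12.7% and 14.9% of all genes. Without BRAF line 1, 7 were lower, against 8.37% of all genes. None passed the adjusted threshold, and 6 did with normexp background correction, against 5.04% of all genes. Of these 19 genes, 6 were below background in at least 1 group, and setting them to the floor left the median at -1.28. Pax4, among the 11 lower genes, was below background in both BRAF groups, so its lack of a BRAF rise was not measured. Pyy, the peptide YY hormone gene, changed by 4.20, 1.29 and 4.68 in EV lines and by 0.04, 0.07 and -0.17 in BRAF lines (response difference -3.41 ± 0.83, adjusted p = 0.0827). Its level in ENSW medium was -3.60 to -2.08 in EV and -3.52 to -2.86 in BRAF lines, and BRAF lines stayed between -3.46 and -2.96 in base medium. Scg2, a granule protein gene, changed by 3.06, 3.28 and 2.76 in EV lines and by -1.53, 1.08 and 1.00 in BRAF lines (adjusted p = 0.0827). Neurog3, the transcription factor gene that starts the lineage, fell by 4.05 in EV organoids and changed by -2.53 in BRAF organoids (response difference 1.52, adjusted p = 0.385). Of 11 tuft cell genes, 2 were lower at an unadjusted p under 0.05, near the 12.7% of all genes, with a median of -0.76 that ran from -1.05 to -0.37 with 1 culture left out.

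Cholesterol synthesis genes were the 1 list here with a negative median in 2 of 3 EV lines and a positive one in all BRAF lines. The median change was 0.10, -0.16 and -0.19 in EV lines and 0.76, 0.49 and 0.41 in BRAF lines. Of 24 genes, 8 fell and 2 rose in EV organoids, and 5 rose and 0 fell in BRAF organoids. Of all genes, 22.8% fell and 30.9% rose in EV organoids, and 3.54% rose and 1.41% fell in BRAF organoids. The median response difference was 0.62, and 15 were higher at an unadjusted p under 0.05, against 14.9% of all genes. Without BRAF line 1 the number was 14, against 12.2% of all genes. At the adjusted threshold 0 passed, and 9 did with normexp background correction, against 8.06% of all genes. Lss, which encodes lanosterol synthase, changed by -0.40, -0.67 and -1.27 in EV lines and by 0.82, 0.85 and 0.62 in BRAF lines (response difference 1.54 ± 0.27, adjusted p = 0.0684). Mvd, a mevalonate pathway gene, had a response difference of 1.77 ± 0.36 (adjusted p = 0.0801). Of 17 cholesterol promoters, 88.2% held the CCAAT box, which lies 62 bases before the start on the minus strand in Lss.

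Fatty acid oxidation genes rose at 15 of 20 in EV and 6 of 20 in BRAF organoids, against 30.9% and 3.54% of all genes, with 3 lower at an unadjusted p under 0.05, near the 12.7% of all genes. Interferon response genes rose at 21 of 25 in EV and 6 of 25 in BRAF organoids, against the same shares of all genes. Their median change was 0.41 in BRAF line 1 and 1.39 and 2.41 in lines 2 and 3, against 1.54 to 2.44 in EV lines. At an unadjusted p under 0.05 for the response difference, 1 of the 25 was higher and 3 were lower, against 14.9% and 12.7% of all genes. Without BRAF line 1 the median response difference of this list went from -0.82 to -0.19. With that line left out 0 of the 25 were higher and 0 lower, against 12.2% and 8.37% of all genes. Of 15 MHC class I and II genes, 6 were lower at an unadjusted p under 0.05, against 12.7% of all genes. Without BRAF line 1 the number was 3, against 8.37% of all genes. Ciita, the gene for the class II transactivator, changed by 1.30, 1.23 and 1.18 in EV lines and by -0.02, -0.07 and -0.80 in BRAF lines (response difference -1.53 ± 0.26, adjusted p = 0.0657). The p53 target list had no common direction. Of its 25 genes, 5 were higher and 7 lower at an unadjusted p under 0.05, against 14.9% and 12.7% of all genes. Its 2 largest differences, Gtse1 and Ckap2 at 3.45 and 3.88, belong to genes that also act in mitosis and were not well above background on any EV array in base medium, with bounds of at least 6.03-fold and 10.8-fold on the scale used here. With normexp background correction these response differences were 0.56 and 0.96, below those bounds.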

How the data were processed

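RNA from 6 organoid cultures, each in 2 media, was read on 12 1-colour Agilent arrays. The deposited scanner files hold intensity values, made by the authors with Feature Extraction 10.7.3.1 on mm9 probe positions, per the file headers. The authors' deposited value table holds log2 values whose normalization is not given in the sources used here, with limma named in the submitters' processing notes. Its columns follow the median signal of their own array at a rank correlation of 1, and it served as an alternative. Here the processed signal was put on a log2 scale minus the array's 75th percentile. Controls and 1658 spots with an outlier mark were dropped before repeat spots were averaged. A probe was kept where 3 or more of 12 arrays read it well above background, and the brightest probe stood for its gene. Of 39429 probes, 26686 were named by accession, 2531 by symbol, 474 by an older symbol and 9738 as in the file. A change missing in 1 culture at 16 genes was left out of the fit.

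The 6 paired changes were fitted in limma 3.58.1 (R 4.3.3), with moderated tests and Benjamini-Hochberg adjustment over 20964 genes at 0.05. The same fit gave each type's own change. The fit was tested on simulated data. Tables were made with pandas 2.3.3 and numpy 2.4.6, and plots with matplotlib 3.10.9, in Python 3.11.15. Named genes were, in each direction, up to 12 genes that passed with a symbol, signal in all groups and no overlap, filled up by smallest p and then named as not having passed, up to 4 dim genes that passed, and 14 genes always named, and the text prints part of these. An item among them is not reported here. Members and lists were chosen with earlier results of these data known. Other list members, and the promoters printed, were chosen after their values were seen. Bounds took the lowest signal among probes well above background as the floor of a dim group. The number of arrays limits the precision. No column of per-sample values was left unmapped. The alternatives were another background correction, scaling, filter, probe rule, variance and design, and each culture left out.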

Additional observations from a re-analysis of the deposited data

Results flagged for a closer look

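The response difference passed the test at 23 genes, which is a difference between EV and BRAF organoids under the same change of medium (limma, adjusted p under 0.05). At 7 of them only the EV arrays in base medium were well above background, so no BRAF change was measured, and 14 genes passed with a filter at 6 arrays.

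At 8 of these genes every EV line moved one way and every BRAF line the other. Pkp1 was negative in all EV lines and positive in all BRAF lines, with a response difference of 2.63. Cpn1 (-5.67), Capn9 (-3.76), Etv1 (-2.90), Cst6 (-2.70), Cyria (-2.16), Chst8 (-2.12) and Bend5 (-1.92) were positive in all EV lines and negative in all BRAF lines. Bend5 was not well above background on any EV array. Cpn1, Capn9, Cyria, Chst8 and Bend5 were well above background on only part of the BRAF arrays.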

How the results depend on the processing

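The count of response differences depended on the processing more than their signs did. Against 23 genes, it was 2745 with normexp background correction, 11 with no scaling, 175 with the authors' deposited values, 0 with no filter (9510 at an unadjusted p under 0.05 in limma), 14 with a filter at 6 arrays, 6 with trend and robust variance, 15 and 804 without the culture as a block on 12 and 18 arrays, 4279 with the culture as a random block, 3298 with the selected organoids in the fit, 6626 with the slide as a random block, and 0 to 22 without 1 culture. The BRAF change passed at 1037 genes, against 1747 with normexp, 1820 with the authors' values, 238 with no filter, 0 with trend and robust variance (5623 unadjusted in limma), 222 and 381 without the culture as a block, 4156 with the culture as a random block, 3092 with the selected organoids, 3828 with the slide as a random block, and 0 to 2442 without 1 culture. The EV change passed at 7325 to 11581 genes without 1 culture. The fits with the culture or the slide as a random block also held the selected organoids. With the slide as the block, the consensus correlation of changes on the same slide was negative, at -0.52. The difference in median absolute change was -0.29, and -0.088 with normexp.

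All 23 genes kept their sign under every setting run where they were tested, except Ska2 at -0.11 with normexp (15 were tested with the filter at 6 arrays). Other signs turned at Lgr5 (-0.12 with normexp, -1.01 to 2.25 without 1 culture), Krt20 (-0.50 to 1.66 without 1 culture), Id1 (-0.011 with the authors' values), Anxa10 (-0.58 to 0.060 without 1 culture) and Hk1 (-0.050 with the mean of probes). The causes were not tested. The median response difference of all genes was -0.08, -0.22 with normexp and -0.19 with no filter.

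Line numbers are shared by EV and BRAF organoids, but the deviations of same-numbered lines correlated at 0.167, -0.0086 and 0.239, so the lines were not treated as paired. With the line as a replicate block 747 of the 20964 genes passed, all 23 among them, with 475 higher and 272 lower. Against these 475 of all genes, 20 of 24 mitosis, 14 of 24 replication and 8 of 18 recombination and Fanconi genes were higher. By the deviations, 2 of 3 EV lines and 1 of 3 BRAF lines correlated best with their own number. Signal over background limits 1804 genes that were dim in at least 1 group.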

Other observations

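Ssxb10 and Ssxb1, testis-specific genes, were well above background on 3 of 3 EV arrays in base medium, on 1 of 3 BRAF arrays in base medium and on 0 arrays in ENSW medium. Their level in base medium was -0.19 ± 1.94 and -1.02 ± 2.01 (log2, SD, n = 3) in EV organoids, and with a start below background the size of the rise has only a bound. Rhox5, a homeobox gene of the germline, fell by 3.1 in EV organoids and changed by -0.50 in BRAF organoids (response difference 2.59 ± 0.52 SE, limma adjusted p = 0.0789). Its mean level in ENSW medium was -1.26 in EV and 5.20 in BRAF organoids. Of 11 genes of the two-cell embryo and germline list, 2 were higher and 2 lower at an unadjusted p under 0.05, near the 14.9% and 12.7% of all genes.

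S100a9, a calprotectin subunit gene, fell in both types, by 3.18 in EV and by 1.05 in BRAF organoids (response difference 2.13 ± 0.32, limma adjusted p = 0.0652). Cxcl1, a chemokine gene, rose by 1.23 in EV organoids and changed by -0.29 in BRAF organoids (adjusted p = 0.0881). Of 20 fetal-like and YAP target genes, 2 were higher and 3 lower at an unadjusted p under 0.05, also near those shares. Lats2, a Hippo pathway kinase gene, rose by 1.52 in EV organoids and changed by 0.31 in BRAF organoids (response difference -1.21 ± 0.36, adjusted p = 0.099).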
